A study of Homo sapiens with 2 samples.

Results

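The genes that attach ubiquitin to proteins or take it off again were examined among the RNAs that came down with PTBP1. They were taken from the mRNA peak list by symbol: every name beginning with USP, UBE and a digit, RNF, TRIM, FBXO, FBXL, FBXW, CUL, MARCH or OTUD, followed only by letters and digits to its end. The rule gave 112 of the 5186 genes of that list, with 208 of its 8479 peaks. No measured value entered the choice of a gene, but a gene is on the list only because a peak was named for it.

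RIP-seq, the sequencing of RNA that is precipitated with a protein, was performed in MKN-28, an established gastric cancer cell line, with no treatment. One group was the precipitate of an antibody against PTBP1, and the other was the precipitate of normal rabbit IgG, which served as the negative control. Ribosomal RNA was removed from both, and there was 1 library per group, so a difference between them has no replicate check and no test between the groups was possible. A peak names a stretch of the genome with more tags than the IgG background.

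Ubiquitin is a small protein that is joined to other proteins in a relay: an E1 enzyme activates it, an E2 enzyme carries it, and an E3 ligase places it on the target. RING ligases (among them the RNF, TRIM and MARCH proteins) bring the loaded E2 to the target, HECT ligases such as UBE3B take over the ubiquitin first, and cullins are scaffolds that hold a RING subunit at one end and an exchangeable substrate receptor, often an F-box protein, at the other. Chains of ubiquitin can send a protein to the proteasome, and deubiquitinases of the USP and OTUD families remove them. PTBP1, an hnRNP protein, has a preference for runs of pyrimidines in RNA and takes part in splicing and in the fate of mRNAs.

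Each peak carries the authors' values: the tags inside it, the fold enrichment of PTBP1 over IgG, and a false discovery rate (FDR). Over the 208 peaks the tags ran from 6 to 5534 with a median of 14, and 131 peaks (63.0%) had fewer than 20 tags, against 63.4% of all peaks of the mRNA list. The FDR of these peaks ran from 43.10% to 100%, so by the authors' own estimate a large share of such peaks would be false, and 4 of them, at RNF24, RNF26, USP22 and FBXO4, stood at 100%. These 4 had p scores of 891.51, 891.42, 219.32 and 661.66, against a median of 47.7 over the 208 peaks. The highest FDR thus went with high p scores, and it does not mark these 4 as the weakest peaks. Of the markers looked up as a check of the cell type, 2 of 11 gastric epithelial genes had a peak (MUC1 and CLDN18). None of 6 blood genes did, and 2 of 5 stromal genes did (ACTA2 and COL1A1). The Wilson intervals of these shares were 5.14 to 47.7%, 0 to 39.0% and 11.8 to 76.9%. Each took in the 25.7% of all protein-coding genes that had a peak, so these counts cannot tell the cell type. They describe named peaks and not expression. The depth of either library is unknown here.

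Promoter peaks, those the authors placed around a transcript start, made up 52 of the 208 peaks, and some of them covered the start and the sequence before it. Sequences are shown for 3 of the genes with a promoter peak of at least 50 tags that reached over 250 bases before and 30 bases from the start of every transcript listed with it. They are the RefSeq promoters of these genes (GRCh38.p14, the same 280 bases around the start RefSeq gives) and let the pyrimidine content there be seen. Capitals mark the pyrimidine motifs CTCTCT and TTCTCT on the gene's strand, or their complements AGAGAG and AGAGAA where the motif is on the other strand.
FBXL14: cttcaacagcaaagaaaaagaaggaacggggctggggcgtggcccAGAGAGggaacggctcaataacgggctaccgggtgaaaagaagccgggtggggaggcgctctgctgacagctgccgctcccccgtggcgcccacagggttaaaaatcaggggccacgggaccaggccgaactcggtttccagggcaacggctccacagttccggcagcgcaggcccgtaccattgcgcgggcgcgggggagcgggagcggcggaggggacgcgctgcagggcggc
FBXO11: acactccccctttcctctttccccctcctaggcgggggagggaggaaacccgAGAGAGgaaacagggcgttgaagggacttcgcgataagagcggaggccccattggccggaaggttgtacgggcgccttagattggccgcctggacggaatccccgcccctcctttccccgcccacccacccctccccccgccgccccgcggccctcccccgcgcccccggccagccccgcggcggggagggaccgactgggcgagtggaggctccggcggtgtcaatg
RNF217: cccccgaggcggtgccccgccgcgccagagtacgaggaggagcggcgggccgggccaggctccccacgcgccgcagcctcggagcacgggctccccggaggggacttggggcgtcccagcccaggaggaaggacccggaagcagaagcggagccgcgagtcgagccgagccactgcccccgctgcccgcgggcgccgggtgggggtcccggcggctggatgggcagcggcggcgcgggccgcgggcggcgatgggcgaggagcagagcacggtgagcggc
The FBXL14 window, chr12:1594813-1595092 on the minus strand, and the FBXO11 window, chr2:47906469-47906748 on the minus strand, each held a motif on the other strand alone. The RNF217 window, chr6:124962295-124962574 on the plus strand, held neither motif on either strand. Pyrimidines made up 38.6%, 52.9% and 41.1% of the letters of FBXL14, FBXO11 and RNF217, against a median of 49.6% over all protein-coding promoters. On the gene's strand CTCTCT was found in 31 of the 279 promoters of the gene families that could be matched (11.1%) and in 11.3% of 15843 protein-coding promoters, and TTCTCT in 7.53% and 10.4%. The motifs were searched as exact letters, and both can lie in one run of pyrimidines and overlap. The peaks are on the hg19 build, for which no genome sequence was used here, and the start RefSeq gives was not checked against the starts listed with the peaks, so these are not the sequences of the peaks.

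The first question was how much of the ubiquitin system had a peak at all. RefSeq lists 373 protein-coding genes under these names, and 112 of them (30.03%, 95% Wilson interval 25.6 to 34.9) had a peak, beside 25.7% of all 20056 protein-coding genes. This 112 equals the number of genes on the list by coincidence, since it leaves out TRIM16L, which RefSeq does not class as coding, and takes in CDRT1, an older name of FBXW10B. A peak that shared at least 1 base with the transcript it was named for was found for 90 of the 373 (24.1%, 20.1 to 28.7), beside 17.9% of all protein-coding genes. The first interval takes in the share of all protein-coding genes and the second lies above it. The intervals cover counting error only, and long genes offer more room for a peak, which was not tested. Leaving out the USP17L genes and the TRIM genes that are near-identical copies of each other, between which reads could be split, 111 of 334 (33.2%, 28.4 to 38.5) had a peak.

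Among the 112 listed genes, 91 (81.2%) had a peak overlapping the transcript, beside 69.6% of all genes of the list, and 21 had only peaks outside it. Taking the best peak of each gene, the median fold was 9.06, against 7.96 over all genes of the list. Over the 208 peaks the median fold was 7.20, against 7.08 over all peaks of the list. These genes had more peaks each, a mean of 1.87 against 1.70, and a best fold can rise with the number of peaks. A best fold of at least 10 was reached by 48 of the 112 (42.9%), against 32.9% of all genes of the list and 8.46% of all protein-coding genes. Just under that line lay RNF32 at 9.21, USP11 at 9.46, OTUD4 at 9.50 and TRIM24 at 9.52, and just above it FBXL22 at 10.10, RNF220 at 10.24, and USPL1 and UBE2Q2 both at 10.44. These shares and medians hold for genes that already had a peak, and no test was made of them.

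**Figure D1:**
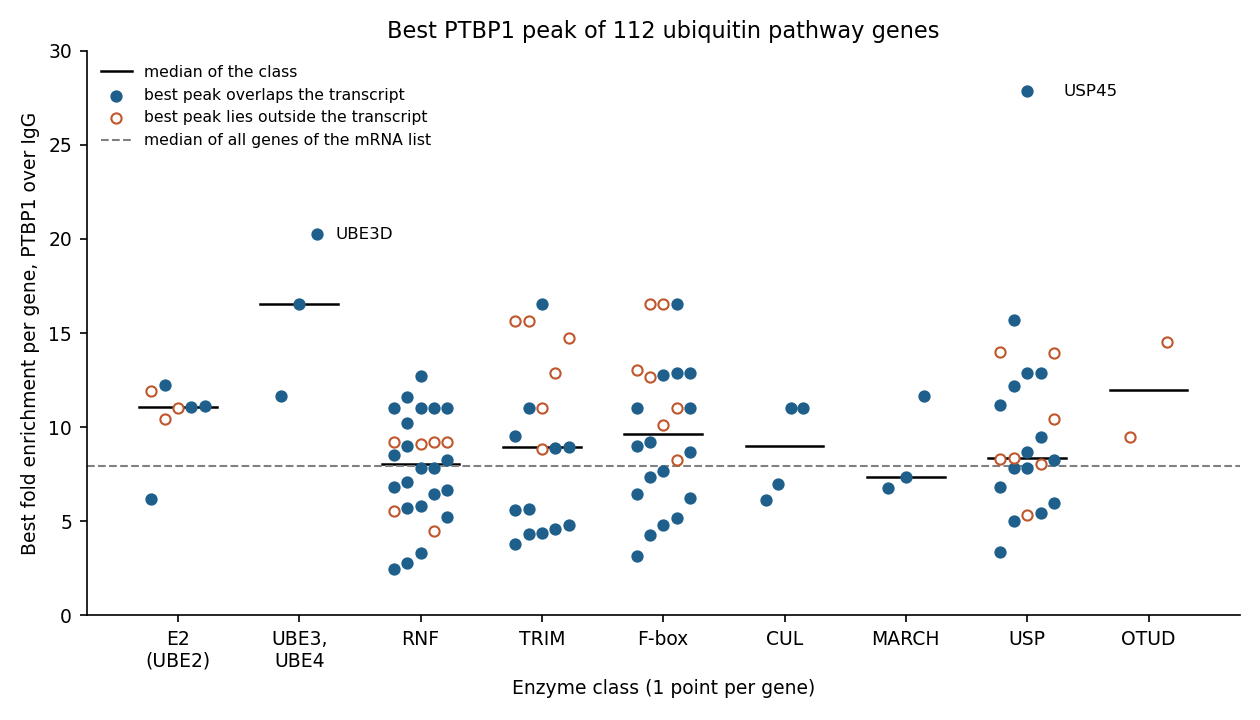
Best fold enrichment of PTBP1 over IgG for each of 112 genes (1 point per gene), grouped by enzyme class. Filled points mark a best peak that shares at least 1 base with the transcript, and open points one outside it. Short lines mark the median of the class, and the dashed line the median of 7.96 over all genes of the mRNA list. USP45 at 27.84 and UBE3D at 20.25 stood above all other points.

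Of 9 E1 enzymes, which charge ubiquitin or a ubiquitin-like modifier, 2 had a peak (22.2%, 6.32 to 54.7). The higher fold was 7.24, at the promoter of UBA1, the main E1 of ubiquitin. The lower was 4.27 with 50 tags at UBA7, in an upstream peak outside its transcript. Of 36 UBE2 genes, which encode the E2 enzymes, 7 had a peak (19.4%, 9.75 to 35.03) and 4 an overlapping one (11.1%, 4.41 to 25.3). These intervals take in the 25.7% and 17.9% of all protein-coding genes. The best folds of these 7 ran from 6.17 to 12.22, and 6 of them (85.7%) reached 10, beside 32.9% of all genes of the list.

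UBE2V1, an inactive E2 variant that works together with UBE2N, had the highest E2 fold, 12.22 with 12 tags in an intron. That peak was also named for the read-through gene TMEM189-UBE2V1, so it cannot be assigned to one of them. Its other peak, with 52 tags and a fold of 7.22, lay 12371 bases before its start and inside TMEM189. UBE2D2, an E2 that serves many RING ligases, had 228 tags at a fold of 3.58 in its promoter and 21 tags at 11.14 in an intron, 79.7% of the way along the gene. UBE2E3 had 1 promoter peak with 66 tags and a fold of 11.05 over its transcript start, and it was the only one of the E2 genes with a fold over 10 and more than 50 tags in the same peak. UBE2U reached 11.93 with 8 tags, but its peak lay 22473 bases before the gene.

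Among the 6 UBE3 and UBE4 genes, 3 had a peak (50%, 18.8 to 81.2), beside 25.7% of all protein-coding genes. All 3 had one overlapping the transcript. All 3 also had a best fold over 10, where 32.9% of all genes of the list reached 10. UBE3D, an atypical E3 with a HECT-like domain, had 11 tags at a fold of 20.25 in an intron. UBE3B, a HECT ligase, had 11 tags at 16.56 in a promoter peak that was also named for its neighbour KCTD10. No peak was named for UBE3A, UBE3C or UBE4B.

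UBE4A, a U-box enzyme that lengthens ubiquitin chains, had 4 peaks, all in exons. From the start of the gene onward they held 16, 19, 29 and 17 tags, at folds of 5.86, 11.48, 9.84 and 11.65. They lay close together, within 7405 bases (chr11:118243119-118250523 on hg19), which is 18.7% of the 39632 bases of the transcript. Their FDR ran from 43.92% to 59.91%.

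The UBE4A transcript held 4 further peaks that the list names for ATP5L, the next gene along, as upstream peaks. They held 16, 12, 6 and 142 tags at folds of 7.79, 15.66, 11.04 and 6.91, and the last of them (chr11:118267013-118270217) covered the end of UBE4A. By position, then, 8 peaks with 257 tags lay in UBE4A, of which 81 tags were in peaks carrying its name and 176 in peaks carrying that of ATP5L. The peaks have no strand, so which transcript gave the tags cannot be told apart from these files.

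**Figure D2:**
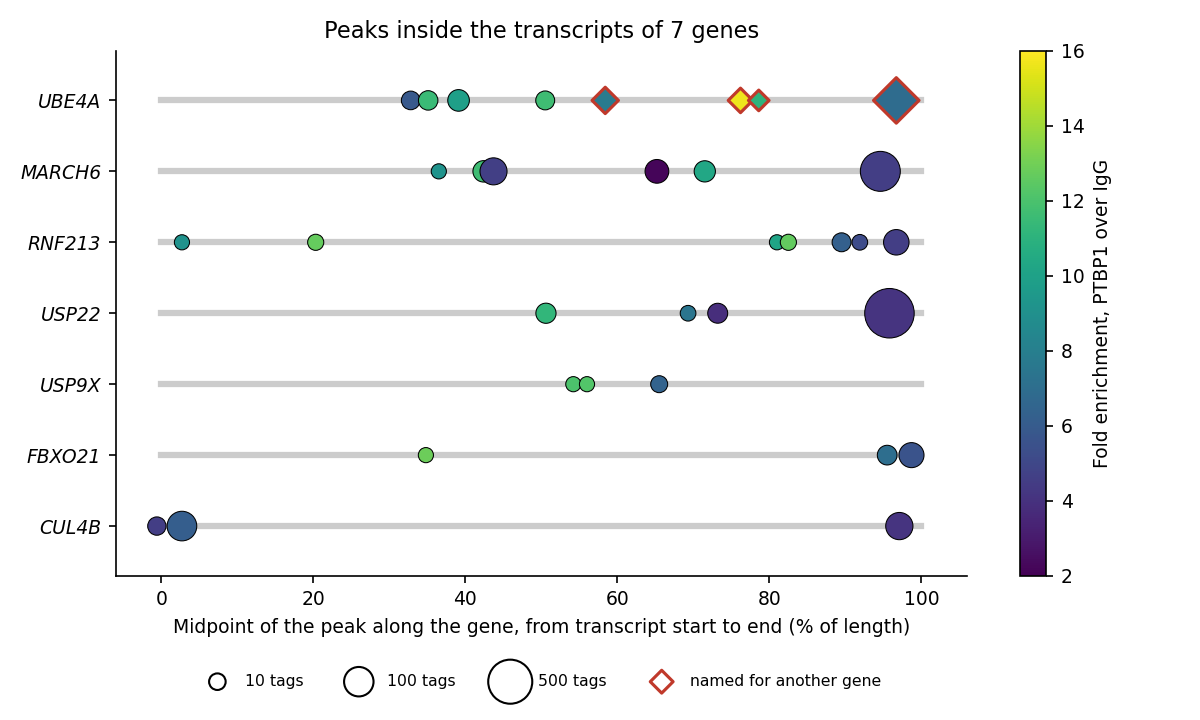
Peaks overlapping the transcripts of 7 genes, placed by the midpoint of the peak from transcript start to end (% of genomic length). Symbol area rises with the tags, and colour gives the fold over IgG. Diamonds are peaks named for another gene, and circles are peaks named for the gene itself. The 4 circles of UBE4A lie between 32.8% and 50.5% of its length, and its 4 diamonds, named for ATP5L, between 58.4% and 96.7%.

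The RING proteins of the RNF group were the largest class. Of 86 genes 28 had a peak (32.6%, 23.6 to 43.02), an interval that takes in the 25.7% of all protein-coding genes. An overlapping peak was found for 25 (29.1%, 20.5 to 39.4), beside 17.9% of all protein-coding genes. The median best fold of the 28 was 8.03. A fold of 10 was reached by 7 of them (25%), beside 32.9% of all genes of the list. Of the 28, 18 had more than 1 peak and 10 (35.7%) a single one, beside 58.2% with a single peak over all genes of the list.

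RNF213, a very large RING protein with an ATPase core, had 7 peaks, all inside the gene and spread over 94.9% of its length. In gene order they held 7, 9, 7, 9, 17, 8 and 56 tags at folds of 9.13, 12.70, 10.15, 12.65, 6.26, 5.22 and 4.57. The fold was lowest where the tags were most, in the exon peak at 96.7% of the length. RNF166 had 31 tags at 11.60 in an exon near its end, and a second peak, of 53 tags at 8.36, that lay 17681 bases before its start and inside PIEZO1. RNF19A, a RING-between-RING ligase, had 4 peaks with 6 to 18 tags and folds of 5.22 to 11.04, none of them in an exon.

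Of the 10 peaks with the most tags among all these genes, 5 were at RNF genes, and those 5 had folds of 3.0 to 6.80. RNF24, a membrane RING protein, had 5534 tags in 1031 bases, the 4th highest count of any peak on the mRNA list. Its fold was 3.45 and its FDR 100%, and the peak lay 8534 bases before the gene, in no transcript of another listed gene. RNF26, a RING protein of the endoplasmic reticulum, had 829 tags at 6.80 in a peak of 2834 bases that overlapped 2792 bases of the transcript, again with an FDR of 100%. RNF182 had 875 tags at 3.11 in an exon at 97.5% of its length and 123 at 3.21 in its promoter. RNF114 and RNF145 had 237 and 223 tags in exon peaks at 93.6% and 97.7% of their length, at folds of 3.28 and 3.0.

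RNF43, which removes Wnt receptors from the cell surface, had 2 promoter peaks, of 27 tags at 3.36 and 16 tags at 8.23. For RNF32 the mRNA list gave only 2 peaks beyond the end of the listed transcript, of 35 and 37 tags at 9.21 and 7.88. The lncRNA list, which pairs peaks with noncoding isoforms, added an exon peak of RNF32 with 18 tags at 14.72.

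Of 77 TRIM genes 17 had a peak (22.1%, 14.3 to 32.5), beside 25.7% of all protein-coding genes. The listed TRIM16L makes 18. TRIM5, which blocks incoming retroviruses, had 3 peaks inside its transcript: 6 tags at 9.02, 9 tags at 16.56 and 20 tags at 5.97. TRIM21, a cytosolic antibody receptor, and TRIM8 both reached 15.66, with 11 and 25 tags, but outside their transcripts, 16916 and 12802 bases before the start. The TRIM8 peak was inside SUFU. At TRIM8 itself, a promoter peak of 102 tags over the start had a fold of 4.01, and an exon peak of 141 tags one of 2.65.

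TRIM33, a nuclear ligase that acts on SMAD4, had 3 peaks at the ends of its gene: 6 tags at 11.04 near the start, and 14 tags at 4.69 and 6 tags at 11.04 in exons at 95.9% and 99.6% of its length. TRIM29 had 160 tags at 3.81 in its promoter and 310 at 2.28 in an exon at 97.7%. Of the 18 TRIM genes, 13 (72.2%) had a single peak, beside 58.2% of all genes of the list.

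F-box proteins, the substrate receptors of cullin ligases, had a peak in 25 of 63 genes (39.7%, 28.5 to 52.0), counting CDRT1, and an overlapping one in 20. By subgroup these were 8 of 17 FBXL, 13 of 36 FBXO and 4 of 10 FBXW genes. Of the 24 listed under an F-box name, 12 had a best fold of at least 10.

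FBXO7, an F-box protein in which mutations cause a parkinsonian disease, had 7 peaks. The 4 that overlapped the gene held 31, 68, 14 and 143 tags at folds of 5.65, 4.90, 3.39 and 3.39. The 3 beyond its end held 8, 7 and 18 tags at 12.15, 9.06 and 16.56, so the fold that ranks the gene came from a peak 72593 bases from its start. FBXO2, which recognises sugar chains on proteins, and its neighbour FBXO44 shared 1 peak of 9 tags at 16.56, which overlapped FBXO44 and not FBXO2.

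FBXO4 had 236 tags at 13.05 in 4698 bases, the only peak of these genes with 100 or more tags and a fold over 10. It lay 5924 bases before FBXO4 and inside C5orf51, and its FDR was 100%. FBXO21 had 3 exon peaks, of 7 tags at 12.88 early in the gene and of 20 and 52 tags at 7.0 and 5.57 near its end. FBXL14 had 144 tags at 9.02 and FBXO11 75 tags at 6.59 in their promoter peaks. FBXL4 had an intron peak of 6 tags at 11.04 and an exon peak of 55 tags at 4.25, and the lncRNA list added an intron peak of 19 tags at 14.32.

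Of the 8 cullins, 4 had a peak (50%, 21.5 to 78.5), each with at least 1 inside the transcript. The interval takes in the 25.7% of all protein-coding genes. CUL2, the scaffold that works with VHL, had 2 exon peaks of 11 and 6 tags at 2.94 and 11.04. CUL4A and CUL4B, close relatives that hold DDB1, differed in where their peaks lay. CUL4A had 2 peaks before its start and 2 in introns, of 6 to 13 tags at 5.22 to 6.96. CUL4B had promoter peaks of 15 and 102 tags at 4.57 and 6.12 and an exon peak of 73 tags at 4.12 at 97.1% of its length. CUL9, a large cullin that binds p53, had 4 peaks with folds of 6.26 to 11.04. No peak was named for CUL1, CUL3, CUL5 or CUL7.

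Of the 11 MARCH genes, ligases that sit in membranes, 3 had a peak (27.3%, 9.75 to 56.6), beside 25.7% of all protein-coding genes. MARCH6, of the endoplasmic reticulum, had 6 peaks in the gene with 513 tags together. In gene order they held 7, 28, 71, 42, 27 and 338 tags at folds of 9.20, 11.64, 4.61, 2.21, 10.36 and 4.56, and the last, at 94.6% of the length, was 4271 bases long. MARCH5, of the mitochondrial outer membrane, had 14 tags at 6.75 in an exon, and MARCH8 had 7 tags at 7.36 in its promoter.

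Of 78 genes with names beginning with USP, not all of them deubiquitinases, 23 had a peak (29.5%, 20.5 to 40.4). None of the 25 USP17L genes, near-identical copies of each other, had one (upper bound 13.3%), and of the other 53 USP genes 23 did (43.4%, 31.0 to 56.7). The interval of all 78 takes in the 25.7% of all protein-coding genes, and that of the 53 lies above it. Gene length was not tested. USP45, which acts on a DNA repair nuclease, had the highest fold of all 112 genes, 27.84, from 18 tags in a promoter peak of 669 bases with an FDR of 67.09%. It had no other peak on the mRNA list. USP47 followed with 9 tags at 15.69 in an intron. USP50 reached 14.01 with 13 tags, but 63067 bases before its start, while its exon peak had 11 tags at 5.80.

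USP22, the deubiquitinase of the SAGA chromatin complex, had 4 peaks. An intron peak near the middle of the gene held 22 tags at 11.19, the next 2, in exons, 8 tags at 7.43 and 21 tags at 3.83, and the last exon peak, 3589 bases long, 796 tags at 4.09. USP9X, a large deubiquitinase of the X chromosome, had 3 exon peaks of 7, 7 and 11 tags at 12.02, 12.18 and 6.39 within 11.5% of its length. USP34 had 5 peaks, of which the 2 inside the gene held 10 tags at 12.88 and 7 tags at 7.36, and the 3 before it 11, 9 and 8 tags at 7.18, 13.92 and 13.90. USP36, a nucleolar enzyme, had exon peaks of 12, 51 and 117 tags at 8.27, 4.21 and 3.61, and a promoter peak of 14 tags at 4.06 before its start.

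Of 8 OTUD genes 2 had a peak (25%, 7.15 to 59.1), beside 25.7% of all protein-coding genes. Neither had one inside its transcript under its own name. OTUD5 had 18 tags at 14.50 and 10 tags at 13.92, both before its start and inside KCND1. A peak of 179 tags at 3.70 lay inside OTUD5 but was named for PIM2. OTUD4 had 14 tags at 9.50 beyond its end. No peak was named for OTUD1, OTUD3, OTUD6A, OTUD6B, OTUD7A or OTUD7B.

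The next question was where on the genes the peaks lay. By the authors' annotation, 37.98% of the 208 peaks were in exons (31.7 to 44.7), 25% in promoters (19.6 to 31.3) and 16.3% in introns (11.9 to 22.0). Upstream peaks made up 11.1% (7.48 to 16.05) and intergenic ones 9.62% (6.31 to 14.4). Over all peaks of the mRNA list the shares were 32.4% exon, 20.9% promoter, 15.1% intron, 16.4% upstream and 15.2% intergenic. The intergenic and upstream shares of the whole list lay above the intervals of these genes, and the exon, promoter and intron shares lay inside them. Median folds were 6.21 in exons and 5.72 in promoters, and 9.88 in introns, 9.09 upstream and 9.36 between genes, where the median tags were 16, 20, 9, 13 and 9.

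**Figure D3:**
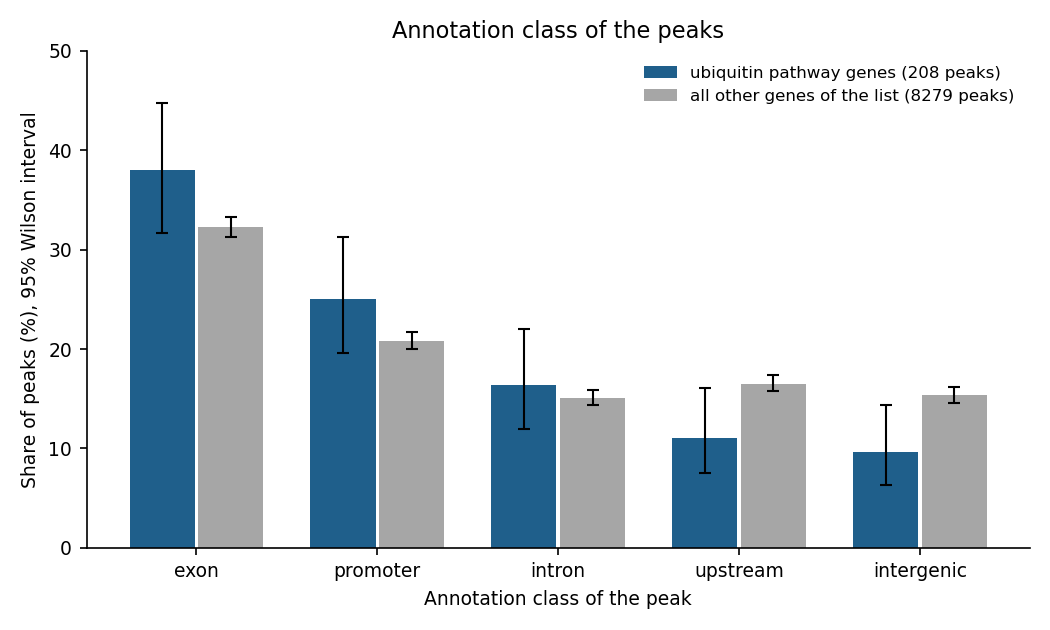
Share of peaks (%) by annotation class for the ubiquitin pathway genes (208 peaks) and for all other genes of the mRNA list (8279 peaks), with 95% Wilson intervals for counting error. Exon peaks made up 37.98% of the first and 32.2% of the second, and intergenic peaks 9.62% and 15.4%.

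Exon peaks gathered at the end of the genes. Of 79 exon peaks 32 (40.5%, 30.4 to 51.5), in 29 genes, had their midpoint in the last 10% of the transcript, beside 35.2% over all genes of the list, a share inside that interval. These 32 peaks were wide and held many tags, with a median of 25.5 tags and 975.5 bases, whereas the 47 exon peaks before the last 10% had medians of 13 tags and 353 bases. The same held over all genes of the list, with medians of 24 and 11 tags. RNF182, USP22, MARCH6, TRIM29, RNF114 and RNF145, the exon peaks among the 10 with the most tags, all lay there. UBE4A and USP9X were different, with exon peaks in the middle of the gene.

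**Figure D4:**
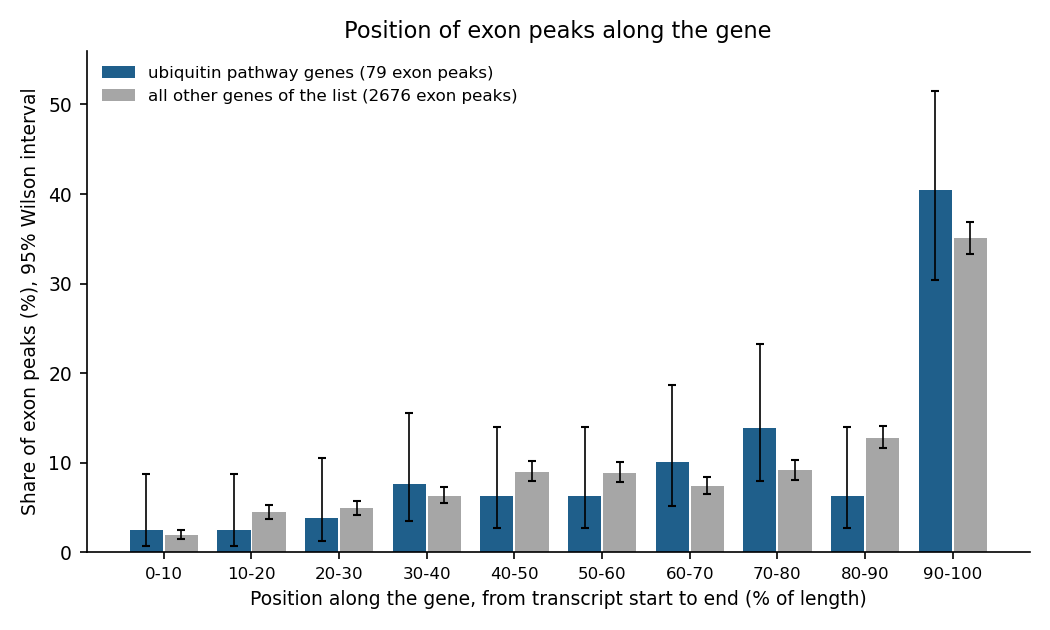
Share of exon peaks (%) in each of 10 equal parts of the gene, from transcript start to end, for the ubiquitin pathway genes (79 peaks) and all other genes of the list (each peak counted once per gene named), with 95% Wilson intervals. The last 10% of the gene held 40.5% of the first, more than any other part.

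Fold and tags ran against each other in these genes and over the whole list. All peaks of the list had a p score of at least 30, and how far such a floor shapes this relation was not tested. The 75 peaks of 6 to 9 tags had a median fold of 10.15, the 56 of 10 to 19 tags 7.07, and the 20 of 100 tags or more 3.71. Over all peaks of the mRNA list the medians were 9.20, 7.46 and 4.59. Of the 60 peaks with a fold of at least 10, 38 had 6 to 9 tags, and only 2, at UBE2E3 and FBXO4, had 50 or more. Many high folds were the same number: 11.04 was the fold of 14 peaks in 12 genes, all with 6 or 7 tags, and 29 of these 60 peaks had one of the 6 commonest such folds of the list, beside 1202 of 2032 (59.2%) over all genes. Among the 48 genes with a best fold of at least 10, only 7 had such a fold in a peak of at least 20 tags.

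**Figure D5:**
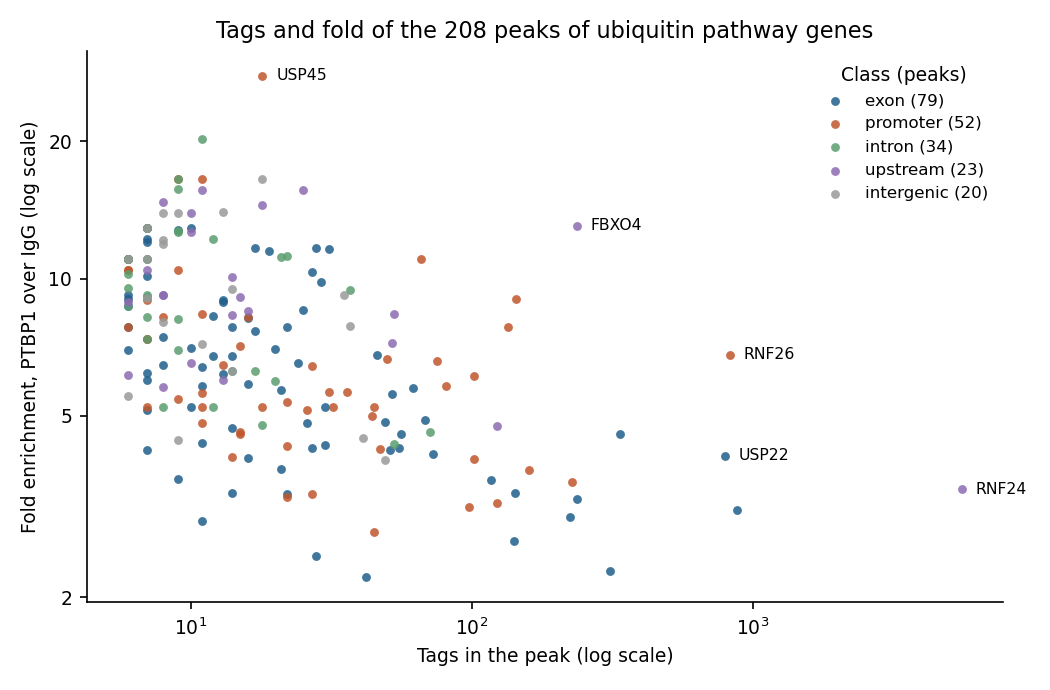
Tags (log scale) and fold enrichment over IgG (log scale) of the 208 peaks, coloured by annotation class, 1 point per peak. Peaks of few tags fill the upper left, RNF24 stands alone at 5534 tags and a fold of 3.45, and FBXO4 at 236 tags and 13.05 lies apart from the other peaks of many tags.

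The names attached to the peaks were a separate matter. Of 209 pairs of a gene and a peak, 159 overlapped and 50 did not. Of these 50, 13 overlapped a transcript of another listed gene. Such were the FBXO4 peak in C5orf51, the FBXL20 peak of 123 tags at 4.75 in MED1 and the FBXL22 peak of 14 tags at 10.10 in USP3, itself one of these genes. In the other direction, 15 peaks named for other genes lay wholly or partly inside the transcripts of 10 of these genes. The most tags were 667 at 5.61 in a peak named for TBC1D9, and 179 at 3.70 in OTUD5. The first lay across the end of RNF150, with 2882 of its 7487 bases inside the transcript. Counting overlapping peaks of any name, 92 of the 112 genes had one, OTUD5 being the gene added. There were also 9 peaks named for several genes at once.

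The lncRNA list held 19 names that match the rule, and 12 of them were also among the 112 genes. For those 12, 21 peaks were the same as on the mRNA list, so these were not a second measurement. The highest folds there were those of USP45 at 27.84, FBXO44 at 16.56, TRIM8 at 15.66, RNF32 at 14.72 and FBXL4 at 14.32.

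The rest of the ubiquitin pathway, outside these names, was looked up in lists of its parts, beside the same 25.7% of protein-coding genes. Of 13 ubiquitin and ubiquitin-like modifier genes 2 had a peak, the higher fold being 11.04 with 6 tags at UFM1. Of 24 other HECT ligases 8 did, led by HERC4 at 16.56, AREL1 at 11.23 and HERC1 at 11.04, and all 8 had one overlapping the transcript. Of 70 other RING ligases 26 did, led by CBLB at 16.56, RCHY1 at 12.88 and TRAF6 at 12.18, the last outside its transcript. Each of these best peaks had 6 to 11 tags.

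Of 59 cullin adaptors and regulators 18 had a peak, led by KCTD10 at 16.56 (the peak shared with UBE3B), DCUN1D3 at 14.72 and KLHL22 at 12.88. The best peaks of DCUN1D3 and KLHL22 lay before the start, outside the transcript. Of 16 genes of the anaphase-promoting complex, a cell cycle ligase, 7 had a peak, and 3 had one overlapping the transcript. ANAPC16 led at 16.56, ahead of CDC26 at 10.13, and both of these best peaks lay outside the transcript. Of 28 deubiquitinases outside the USP and OTUD names 9 had a peak. Among these MYSM1, which acts on histone H2A, had 5 peaks in its transcript, the best with 15 tags at 20.25. MPND followed at 16.56 and TNFAIP3 at 11.04, the latter in a peak outside its transcript.

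Of 43 proteasome genes 16 had a peak (37.2%, 24.4 to 52.1) and 10 an overlapping one, led by PSMD1 at 12.74, PSMB1 at 12.36 and PSMD13 at 11.96. Of 23 genes for VCP, its cofactors and shuttle factors 10 did, each with an overlapping one, led by UBXN4 at 14.72, and UBXN2A and RAD23B both at 11.04. The intervals of these small lists were wide, and 25.7% lay within all of them but that of the other RING ligases (26.8 to 48.9). An overlapping peak was found for 17.93% of all protein-coding genes. The overlap intervals of the other RING ligases (20.5 to 41.5) and the VCP list (25.6 to 63.2) lay above that share. That of the other HECT ligases (17.97 to 53.3) lay barely above it, and those of the other lists took it in. Gene length was not tested.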

How the data were processed

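RIP-seq of MKN-28 cells gave 1 PTBP1 library and 1 IgG library. The submitters' processing notes name cutadapt (1.9.3), Bowtie2 (2.2.4) and the hg19 build, while no source used here names the peak caller. Peaks of PTBP1 over IgG were deposited, each with a transcript accession. The deposited count is the number of tags in a peak, and the library counted is not named. The deposited fold is a ratio to the IgG background. The deposited p score is the p-value as 10 times its negative log10. The deposited FDR is in percent. Promoter tables were not used because they repeat promoter rows of the full tables.

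Each position counted as 1 peak and each symbol as 1 gene, and an overlap needed at least 1 shared base. Position was the distance to the transcript start over the genomic length, in 10 parts. Shares have 95% Wilson intervals. Symbols were matched to RefSeq (GRCh38.p14) by accession (5123), symbol (39) or synonym (5), and 19 were not matched. RefSeq gave names, gene classes and promoter sequences, and its coordinates were not set against hg19. With 1 library per group no test was run. The counting steps were tested on simulated data.

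The genes, the pathway lists and the markers were chosen with earlier results of these data known. The text names UBE4A, in each class the 3 genes that lead by fold and 2 that lead by number of peaks, the 10 peaks with the most tags, the 5 highest folds of the lncRNA list, genes near a fold of 10, up to 3 genes of each pathway list, and genes without a peak in classes of 10 or fewer. Other names, such as RNF43, RNF217, USP9X, USP36, TRIM33, FBXO21 and the neighbours of a peak, were chosen after their values were seen. The alternatives were other thresholds for fold, p score, tags and overlap, and lists without promoter or shared peaks. Leaving out near-identical copies and counting peaks of any name were added after seeing the data. The software was matplotlib (3.10.9), scipy (1.17.1) and pandas (2.3.3) under Python (3.11.15), with numpy (2.4.6).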

Additional observations from a re-analysis of the deposited data

How the results depend on the processing

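Of 53 alternatives, 32 left the value within 1.5 times (counts) or inside its interval (shares and medians), and 21 moved it. With peaks of at least 20 tags only, 77 peaks, 52 genes, 46 genes with an overlapping peak and 7 genes with a fold of at least 10 remained, the median best fold was 5.66, the exon share 45.5% and the share of exon peaks in the last 10% of the gene 54.3%. With a fold of at least 10 these were 60 peaks, 48 genes, 31 overlapping, a median of 12.2, an exon share of 26.7% and a last-10% share of 18.8%. With a p score of at least 50 they were 95 peaks, 66 genes, 47 overlapping and a median of 11.04. Where at least 50% of the peak lay in the transcript, 31 genes reached a fold of 10, the median was 7.83 and the exon share 52.3%. The median over peaks in place of the best peak was 7.20. Under the tag, p score and fold minimums, 13.9%, 17.4% and 12.9% of the 373 coding genes of these names had a peak, beside 12.1%, 13.9% and 8.46% of all coding genes. No paired analysis was possible because each group has 1 library. Low tags limit most folds, and the total depth is unknown.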

Other observations

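The lncRNA list held 7 names of these families that the mRNA list lacked. USP54 had 7 tags at a fold of 12.88 in an exon, and USP44 had 9 tags at 4.45 beyond its end. The other 5 are pseudogenes in RefSeq. RNF5P1 had 366 tags at 2.68 in a promoter peak wholly inside its transcript, and FBXW4P1 had 15 tags at 10.44 beyond its end. UBE2Q2P2 and RNF138P1 had promoter peaks of 10 and 8 tags at 5.74 and 5.97, and UBE2DNL had peaks of 9 and 6 tags at 8.82 and 9.43, both far before its start. Reads of a pseudogene and of its parent gene cannot always be told apart.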
